A study of Mus musculus with 5 samples.

Results

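The YmA-ind EBF1 sites between genes are 1187 regions of the genome of mouse pro-B cells, out of 7494 EBF1 sites in all. They were chosen by 2 properties. The authors had placed them in the class YmA-ind, and the centre of each lay outside the annotated span of any gene and 1000 bp or more from the nearest gene end. Genes of each kind counted, non-coding genes and pseudogenes included. The sites come from 1 chromatin immunoprecipitation library, made with an EBF1 antibody from Ebf1-/- fetal liver cells into which EBF1 wt had been transduced; the labels give the cell type as pro-B cells. The other 4 libraries of the series were not analysed here: the input for the EBF1 ChIP and the input for the BRG1 ChIP, both labelled EBF1 wt, and the EBF1 ChIP and BRG1 ChIP from cells with the form EBF1 YmA. Each is a single library. All the cells lacked their own Ebf1, and the sources used here do not say what the class names stand for. With site positions alone, the labelled cell type was not checked against expression markers.

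EBF1 (early B-cell factor 1) is a transcription factor that B-cell progenitors need to enter and keep the B lineage. It binds DNA as a dimer at a palindromic motif, and it is known for opening chromatin that other factors cannot reach. Much of the control of a mammalian gene can come from enhancers, stretches of DNA that lie outside the gene. At times they act across a long stretch without any other protein-coding gene, which is called a gene desert. Non-coding genes can lie inside a desert. BRG1 is the ATPase of the BAF complex, which moves nucleosomes.

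Class and place were both used to choose the sites, so what follows describes them. Each site is 300 bp wide and carries no height, score or read depth, so how strongly EBF1 bound at one is unknown. Sites of 1 library share their source and are not replicates. Shares and densities are given with exact 95% intervals that cover counting error only, and no difference between classes was tested.

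Of the 4055 YmA-ind sites, 1187 (29.3%, interval 27.9 to 30.7%) lay between genes, 2659 lay inside a gene span and 209 lay outside but within 1 kb of a gene end. The same rule found 266 of 889 YmA-dep sites (29.9%) and 548 of 2550 CTD-ind sites (21.5%). The sites just inside the limit were 1029, 1041, 1043, 1044 and 1064 bp from a gene end, the first beside the non-coding gene 4933404O12Rik and the last beside Sipa1l3. Sites just outside it were 992, 986, 969 and 968 bp away, beside Atad1, Bcar3, Tnp2 and Junb. The limit therefore falls within a continuous range of distances.

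The sequence of the sites themselves was not used here. At some flanking genes another EBF1 site covered the promoter, and 2 of these promoters are shown because they pair a site at the start of a gene with sites of the intergenic set further out. They are the 250 bases before the start of Foxo1, at chr3:52268087-52268336 on the plus strand, and of Cebpb, at chr2:167688665-167688914 on the plus strand (RefSeq, GRCm38.p6), written 5′ to 3′. Foxo1 encodes a forkhead factor that acts with EBF1 in early B cells, and Cebpb encodes a factor of myeloid cells. Capitals mark the letters CCCNNGGG, the core of the EBF motif, which reads the same on both strands.
Foxo1: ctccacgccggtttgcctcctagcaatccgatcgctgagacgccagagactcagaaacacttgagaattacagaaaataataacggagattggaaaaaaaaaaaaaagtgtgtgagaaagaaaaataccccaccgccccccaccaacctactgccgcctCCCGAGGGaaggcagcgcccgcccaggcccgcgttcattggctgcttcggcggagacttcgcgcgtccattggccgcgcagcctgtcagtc
Cebpb: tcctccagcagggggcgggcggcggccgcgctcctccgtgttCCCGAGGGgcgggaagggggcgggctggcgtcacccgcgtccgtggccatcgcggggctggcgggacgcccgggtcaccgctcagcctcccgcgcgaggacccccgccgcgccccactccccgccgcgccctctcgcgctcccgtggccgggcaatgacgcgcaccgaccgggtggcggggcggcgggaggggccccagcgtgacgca
A CTD-ind site (52268114 to 52268413) covered the last 223 of the bases shown for Foxo1, and a CTD-ind site (167688560 to 167688859) covered the first 195 of those for Cebpb. Foxo1 also flanked 5 YmA-ind sites between genes and Cebpb flanked 2. Both promoters shown hold CCCNNGGG, but not every such promoter did. At the flanking genes Gfi1b and Vpreb2 a CTD-ind site also covered part of the promoter, and the letters were absent.

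Promoter sequence was at hand for 1307 of the 1670 protein-coding genes that flanked a YmA-ind site between genes. An EBF1 site of any class covered part of the promoter in 76 of them (5.82%, interval 4.61 to 7.22%), against 515 of all 17274 protein-coding genes with a promoter sequence (2.98%). At these 76 genes the site over the promoter was CTD-ind in 57, YmA-ind in 19 and YmA-dep in 1, and 1 gene can hold sites of several classes. Over all 515 such protein-coding genes the counts were 384, 127 and 8, so the flanking genes had nearly the same split. CCCNNGGG was found in the promoter of 20.4% of the flanking genes and of 15.6% of all protein-coding genes. A longer form of the motif, these letters with a T before them and an A after them, was counted too. It was in the promoter of 15 flanking genes (1.15%, interval 0.644 to 1.89%), against 0.978% of all protein-coding genes. That interval holds the value for all protein-coding genes. Over all 32851 promoter windows of this length, protein-coding or not, 11.8% held CCCNNGGG, and it was in 39.5% of the 648 windows that an EBF1 site covered. A match describes letters in a window, not binding.

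YmA-ind sites between genes lay close to genes more often than far from them. The median distance to the nearest gene end was 8.52 kb (interval 7.46 to 9.37 kb), the middle 50% of sites lay between 3.84 and 19.6 kb, and the farthest was at 297 kb. The sequence open to the rule, that is all bases between genes and 1 kb or more from a gene end, came to 1266 Mb. At 1 to 2 kb from a gene end there were 2.12 sites per Mb of such sequence (interval 1.76 to 2.54), at 10 to 20 kb 1.17, at 20 to 50 kb 0.643, and at 100 kb or more 0.123 (0.0787 to 0.183). The density thus fell at each step outward. Sequence at 100 kb or more made up 15.4% of the open sequence and held 24 sites, 2.02% of the total.

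**Figure D1:**
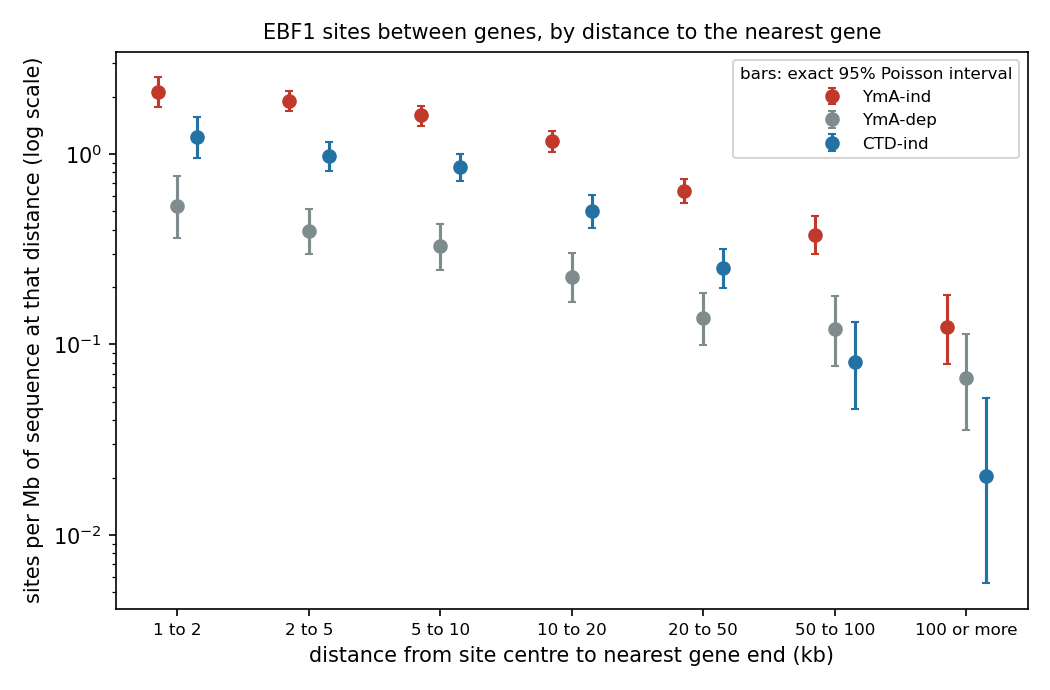
EBF1 sites between genes per Mb of sequence (log scale) against the distance from the site centre to the nearest gene end in kb, for the 3 classes; points are the density in a range of distances and bars the exact 95% Poisson interval. YmA-ind sites run from 2.12 per Mb at 1 to 2 kb down to 0.123 per Mb at 100 kb or more, and the other classes also go down.

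The other classes also thinned out with distance, CTD-ind sites over the widest range. CTD-ind sites between genes went from 1.23 per Mb at 1 to 2 kb to 0.0205 at 100 kb or more, and YmA-dep sites from 0.535 to 0.0665. The values at 100 kb or more rest on 4 CTD-ind sites (interval 0.00558 to 0.0524) and 13 YmA-dep sites (0.0354 to 0.114). The median distance to a gene end was 7.25 kb for CTD-ind (interval 6.53 to 7.86 kb) and 8.97 kb for YmA-dep sites (7.07 to 11.0 kb), and both intervals overlap that of the YmA-ind sites.

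The nearest gene of any kind was protein-coding for 576 YmA-ind sites between genes (48.5%), a long non-coding RNA gene for 402 (33.9%) and a pseudogene for 170 (14.3%). These kinds make up 43.7%, 25.6% and 20.8% of the 49209 genes in the annotation. That count includes genes inside the span of another gene, which cannot be nearest to a site between genes. The shares were close in the other classes, with long non-coding RNA genes nearest to 33.5% of YmA-dep and 34.5% of CTD-ind sites between genes.

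With protein-coding genes alone, distances were longer. The median distance to the nearer flanking protein-coding gene was 19.1 kb (interval 17.0 to 21.3 kb) and to the farther one 70.4 kb. Of the YmA-ind sites between genes, 420 (35.4%) had a protein-coding gene within 10 kb, 309 (26.0%) were over 50 kb from one, and 151 (12.7%, interval 10.9 to 14.8%) over 100 kb. The share over 100 kb was 6.39% (4.49 to 8.77%) for CTD-ind and 19.9% (15.3 to 25.2%) for YmA-dep sites between genes. YmA-ind sites stood between these values. Relative to the length of the gap, the median site was 25.0% of the way in from the nearer gene, which is close to the midpoint of the possible range.

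**Figure D2:**
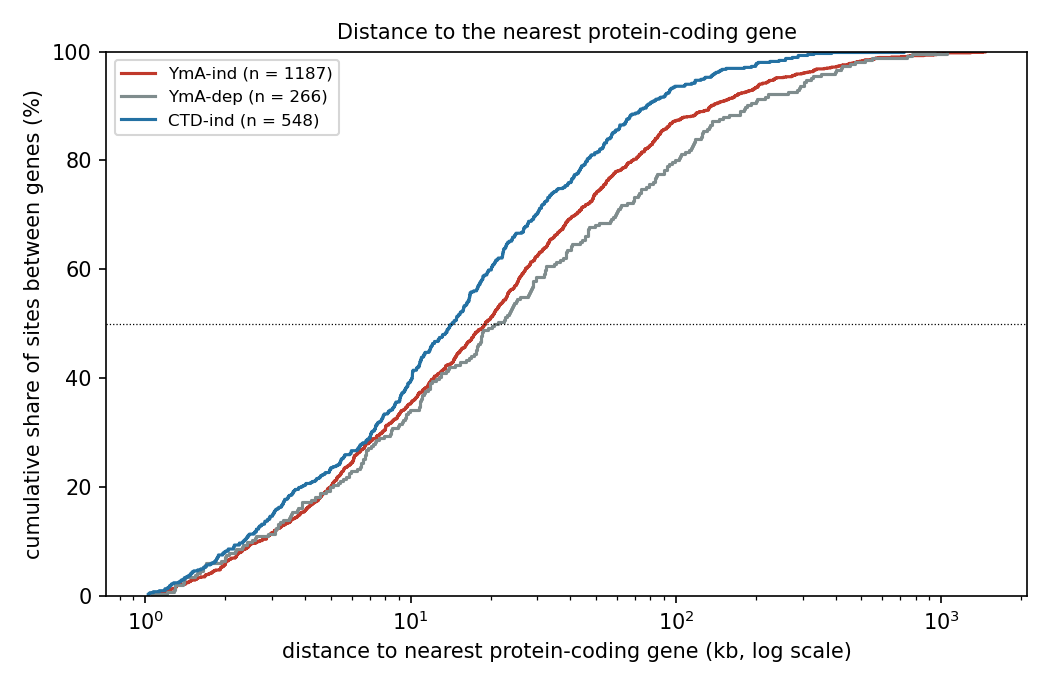
Cumulative share of EBF1 sites between genes (%) against the distance to the nearest protein-coding gene (kb, log scale), 1 line per class; the dotted line marks 50%. The line for the 1187 YmA-ind sites crosses it at 19.1 kb, to the right of the 548 CTD-ind sites, which cross it at 14.3 kb.

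The sites farthest from any gene lay in wide gaps. A site on chromosome 6 (103213245 to 103213544) was 297 kb from Chl1, a neural cell adhesion gene, in the space between Cntn3 and Chl1. A site on chromosome 1 (141584108 to 141584407), between Kcnt2 and Cdc73, was 286 kb from the nearest gene of any kind. Next came sites between St3gal1 and Zfat (250 kb), Epha6 and Nsun3 (190 kb) and Grxcr1 and Kctd8 (181 kb). Counting protein-coding genes only, the most remote site lay 1470 kb from the nearest one, on chromosome 8 (97358533 to 97358832) between Got2 and the cadherin gene Cdh8. A site between Zeb2 and Acvr2a followed at 1430 kb.

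Sites were denser in short gaps. All bases of a short gap are close to a gene end, so this trend and the fall with distance were not told apart. The gap between genes of any kind that held a YmA-ind site had a median length of 40.5 kb. Gaps under 20 kb offered 8.73% of the open sequence and held 287 sites (24.2%), which is 2.60 sites per Mb. Gaps of 50 to 100 kb had 1.22 sites per Mb, and the 182 gaps of 500 kb or more had 0.0791 (interval 0.0380 to 0.146), with 10 sites. CTD-ind sites went from 1.51 to 0.00791 per Mb over the same range, the last value from 1 site.

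Which way the flanking genes pointed could be read where the strand was known, for 17274 of the 21521 protein-coding genes. The start of the nearer gene faced the site in 484 of 901 cases (53.7%, interval 50.4 to 57.0%), and in 166 of 326 (50.9%) when the gene was within 10 kb. Gaps faced by the starts of both neighbours held 228 of 778 sites (29.3%) and 25.8% of the open sequence. Gaps faced by 1 start held 375 sites (48.2%, interval 44.6 to 51.8%) and 53.3% of the open sequence. Gaps faced by no start held 22.5% of sites and 20.9% of the open sequence. The start side had the slightly larger share over all distances, and within 10 kb the interval (45.4 to 56.5%) held equal shares. Over all distances the share was 53.7% for YmA-dep and 54.6% for CTD-ind sites between genes. Equal shares are not the background, since gaps faced by both starts offered more open sequence than gaps faced by none.

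The 1187 sites fell between 886 pairs of neighbouring protein-coding genes, with 1 site beyond the outermost such gene of its chromosome. A single site was found in 703 gaps, 2 in 120 gaps and 3 or more in 63 gaps, which together held 243 sites (20.5%). Of these 63 gaps, 36 also held a CTD-ind and 22 a YmA-dep site between genes, and 20 held neither. Adjacent sites of 1 gap were a median of 19.9 kb apart, and 106 of 300 such spacings (35.3%) were under 10 kb.

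A pair of corepressor genes flanked the most sites. Irf2bp2 on chromosome 8, which encodes a partner of the interferon regulatory factor IRF2, had 13 YmA-ind sites in the gaps beside it, 5 at lower and 8 at higher coordinates. The 5 lay between Tarbp1 and Irf2bp2, a gap of 113 kb, at 6.22, 11.2, 12.3, 23.6 and 58.7 kb from Irf2bp2. The 8 lay between Irf2bp2 and Tomm20, a gene of mitochondrial protein import, on the side of the start of Irf2bp2. They ranged from 24.9 to 207 kb from Irf2bp2, and the gap also held 1 YmA-dep and 1 CTD-ind site between genes. Inside or near non-coding genes this gap held further sites, which brought it to 18 EBF1 sites.

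Tle3 on chromosome 9, which encodes a Groucho-family corepressor, also had 13. On the side of its start, in the 492 kb gap to Uaca, lay 8 sites, spread over 468 kb. The closest to Tle3 was at 10.1 kb (61362045 to 61362344), and the closest to Uaca at 13.3 kb (60893550 to 60893849). Among these 8, the sites at 61200331 to 61200630 and 61200624 to 61200923 overlapped, with centres 0.293 kb apart, so that they may not be separate places of binding. On the far side, 5 sites lay in the 495 kb gap to the ribosomal protein gene Rplp1, from 200 to 483 kb from Tle3.

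**Figure D3:**
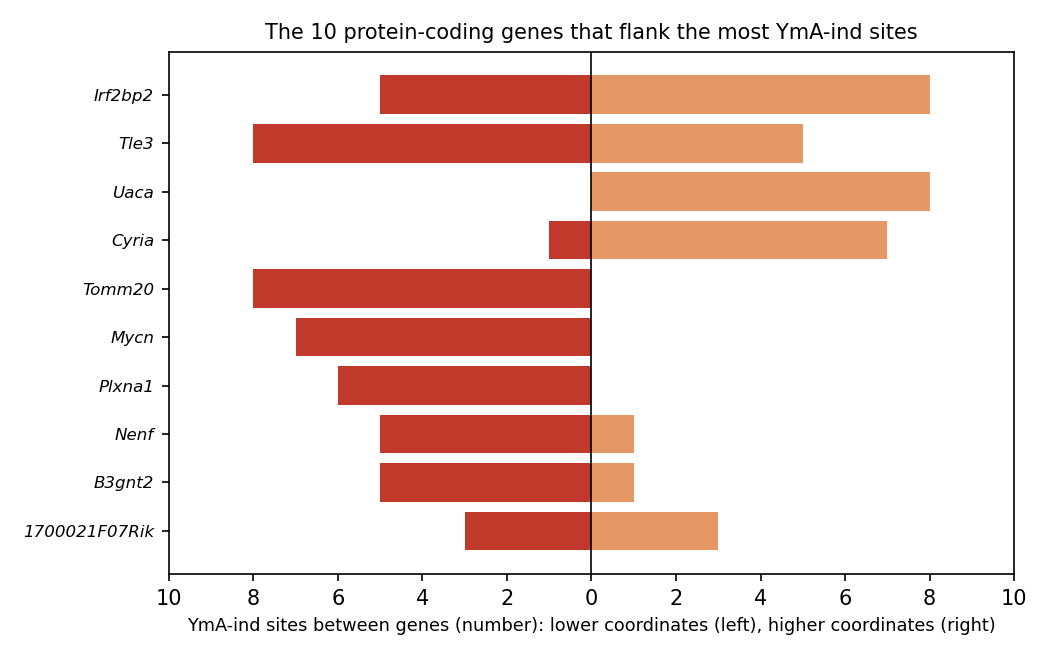
Number of YmA-ind EBF1 sites between genes in the gaps on either side of the 10 protein-coding genes that flank the most of them, with sites at lower coordinates to the left and at higher coordinates to the right. Irf2bp2 and Tle3 each have 13 sites, on both sides, while Uaca and Tomm20 have 8 and Mycn has 7 on 1 side only; a site counts for the genes on both sides of its gap.

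Other gaps held their sites close together. Between Banf2 and Snx5, a sorting nexin gene, on chromosome 2 lay 6 sites within 18.3 kb, at 34.7, 31.2, 27.2, 21.3, 18.8 and 16.4 kb from Snx5. With 1 CTD-ind site they formed a run of 7 sites, each under 10 kb from the next (144215311 to 144239701). Between Tmem17 and B3gnt2 on chromosome 11, 3 of 5 sites lay close together (22762551 to 22763961), with centres 0.563 and 0.548 kb apart, and the other two were 34.7 and 23.4 kb from B3gnt2, a glycosyltransferase gene. B3gnt2 also had a YmA-ind site over a promoter window, inside its gene span.

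Between Tpra1 and Plxna1 on chromosome 6, 5 of 6 sites were on the side of Plxna1, a semaphorin receptor gene, with 4 of them at 1.48, 7.90, 19.8 and 28.0 kb from it. The gap between E2f8, an atypical E2F factor gene of the cell cycle, and Nav2 on chromosome 7 was the shortest of those with 5 sites, at 77.0 kb. It held 64.9 sites per Mb and no EBF1 site of another class; it was singled out after its values were seen.

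Runs were less common than single sites. Counting sites of all classes, 148 YmA-ind sites between genes (12.5%, interval 10.6 to 14.5%) were in a run of 3 or more sites with gaps under 10 kb, beside 887 of all 7494 sites (11.8%). These 148 lay in 87 runs, of which 7 were made of YmA-ind sites between genes alone. The nearest other EBF1 site was a median of 25.9 kb away, against 23.3 kb for all sites. Its class was YmA-ind for 53.9%, CTD-ind for 34.6% and YmA-dep for 11.5%, which is close to the make-up of the list as a whole (54.1%, 34.0% and 11.9%).

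Gene deserts were defined as stretches of 500 kb or more between neighbouring protein-coding genes, and there were 639. They made up 50.8% of the open sequence between protein-coding genes and held 149 YmA-ind sites between genes (12.6%, interval 10.7 to 14.6%). That is 0.232 sites per Mb (0.196 to 0.273), against 1.67 (1.57 to 1.77) in shorter gaps. For CTD-ind sites the values were 0.0623 and 0.817, and for YmA-dep sites 0.0686 and 0.356. A YmA-ind site between genes was found in 92 deserts. Of these, 61 held 1 site, 18 held 2 and 13 held 3 or more, the last with 52 sites in all.

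The longest deserts held few sites. Among the 10 longest, 2 held a YmA-ind site between genes, 1 site between Olfm4 and the protocadherin gene Pcdh17 (4420 kb) and 2 between Zeb2 and Acvr2a (3697 kb). The longest, 4542 kb between Pcdh20 and Pcdh9, held no EBF1 site of any class. Among the 50 longest, 10 held 13 sites in all.

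The desert with the most sites lay between Cyria and Mycn on chromosome 12, 555 kb long. Mycn encodes a Myc-family factor that drives proliferation. The 7 sites were 40.0, 119, 123, 132, 197, 343 and 384 kb from Mycn, and 3 of them formed a run (12803610 to 12817462). Both genes point into this desert with their far ends, so that neither start faces it. The nearest gene to each site was a long non-coding RNA gene, such as Gm35155 and Gm34489.

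Downstream of Foxo1 on chromosome 3, the 632 kb desert to Cog6 held 4 sites, at 42.6, 45.6, 98.2 and 219 kb from Foxo1. All 4 were nearer to Foxo1 than to Cog6. The first 2 (52392571 to 52392870 and 52395574 to 52395873) were in a run with a further site. The desert also held 3 CTD-ind and 2 YmA-dep sites between genes, and 12 EBF1 sites in all. Another YmA-ind site between genes was 78.9 kb from the start of Foxo1 on its other side (52189244 to 52189543).

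The desert on chromosome 15 beyond Myc, a factor of cell growth, was 1786 kb long and held 5 sites. Their distances from Myc were 339, 708, 1630, 1647 and 1727 kb. The site closest to Myc (62328866 to 62329165) lay 68.8 kb past Pvt1, the long non-coding RNA gene next to Myc. The other end of the desert, towards Gsdmc, held 3 sites at 156, 139 and 59.1 kb from Gsdmc (from 63619995 to 63717033). The 2 sites nearer to Myc were 370 kb apart. Between the farther of these and the 3 sites towards Gsdmc, 921 kb held no YmA-ind site between genes.

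The desert beyond the far end of Ebf1 on chromosome 11, 844 kb to Clint1, held 3 sites, at 18.6, 206 and 402 kb from Ebf1, with 2 YmA-dep sites between genes. Another YmA-ind site between genes was 5.60 kb before the start of Ebf1 (44612355 to 44612654). EBF1 in these cells came from the introduced copy, and transcription of Ebf1 itself was not measured here.

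Cxcr4, which encodes the receptor that holds B-cell progenitors in the bone marrow, and Thsd7b both face their 681 kb desert on chromosome 1 with their starts. The 3 sites were all beside Cxcr4, at 83.4, 94.1 and 119 kb, within 35.8 kb of each other (128675527 to 128711596). A further desert with 3 sites on this chromosome lay between Nr5a2 and Ptprc and was 1102 kb long. Ptprc encodes CD45, a phosphatase of leukocytes, and the sites were 32.9, 493 and 620 kb from it.

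**Figure D4:**
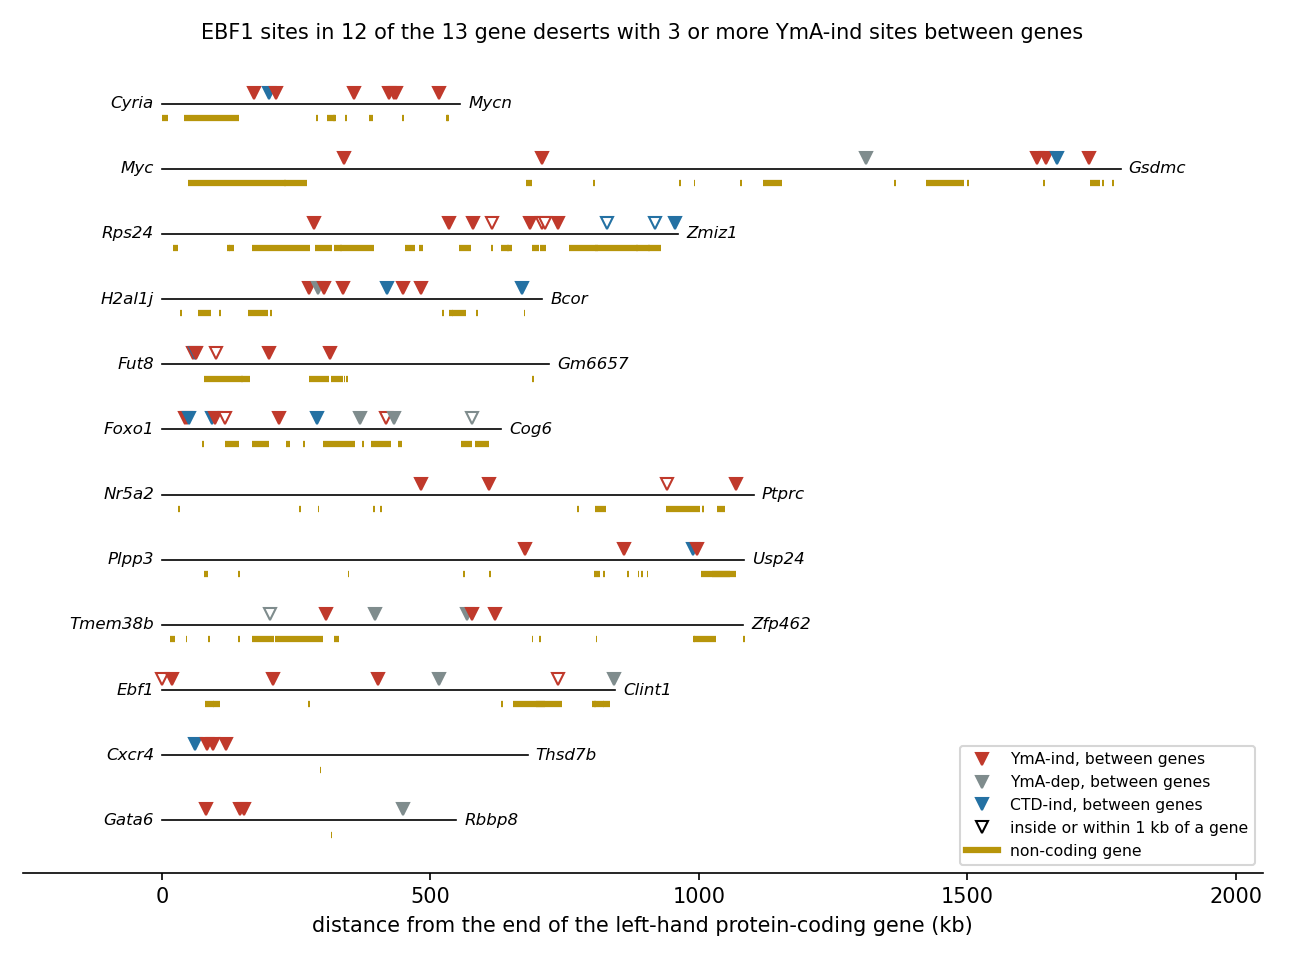
Map of 12 of the 13 gene deserts with 3 or more YmA-ind EBF1 sites between genes: each line is a desert between the 2 protein-coding genes named at its ends, drawn to scale in kb from the left-hand gene, triangles are EBF1 sites by class (open if inside or within 1 kb of a gene) and bars below the line are non-coding genes. The 4 filled red triangles in the desert of Foxo1 are on the side of that gene. Of the 5 beyond Myc, 2 are nearer to Myc, 370 kb apart, and 3 nearer to Gsdmc, after 921 kb without a filled red triangle.

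Among the remaining deserts, that before the start of Zmiz1, a coactivator gene, on chromosome 14 was 961 kb long and held 5 sites, 4 of them nearer to Zmiz1 than to Rps24 and the closest at 223 kb. The desert between H2al1j and Bcor on chromosome X, 709 kb, also held 5, from 226 to 436 kb from Bcor, which encodes a corepressor that works with BCL6. The desert beyond the fucosyltransferase gene Fut8 on chromosome 12 held 4 sites, all on the side of Fut8, from 57.8 to 312 kb. Those between Plpp3 and Usp24, Tmem38b and Zfp462, and Gata6 and Rbbp8 held 3 each. The last of these is named beyond the rule, after its values were seen.

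Genes known from B-cell development, and from T, NK and innate lymphoid cells, were among the neighbours of these sites. Of all 21521 protein-coding genes, 1670 (7.76%) were next to at least 1 YmA-ind site between genes. The count was 10 of 24 B-lineage transcription factor genes, 8 of 22 genes in the receptor signalling list (pre-B and B-cell receptor), 8 of 21 genes of IL-7, PI3K and survival, 4 of 17 genes of early B surface and recombination, and 10 of 22 T, NK and innate lymphoid genes. It was 4 of 22 for the myeloid and erythroid list, 4 of 22 for the BAF complex and 2 of 15 for housekeeping genes. The share was above 7.76% in each of the 10 lists, housekeeping genes included, and highest in the T, NK and innate lymphoid list (45.5%). CTD-ind sites between genes flanked 10 genes of the B-lineage factor list, 5 of receptor signalling and 7 of IL-7, PI3K and survival. They flanked 5 of the T, NK and innate lymphoid list and 914 of all protein-coding genes. For YmA-dep sites these counts were 4, 1, 3, 4 and 471. No test of these lists was made, and they were drawn up with earlier results of these data known. A gene beside a long gap has more room for a site: the median length of the gaps beside a gene was 177 kb for the B-lineage factors, 37.0 kb for all protein-coding genes and 5.76 kb for housekeeping genes.

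Per Mb of gap beside the genes, the values were 2.92 sites for B-lineage factors, 5.62 for receptor signalling, 3.33 for IL-7, PI3K and survival, 3.05 for early B surface and recombination, 1.16 for the T, NK and innate lymphoid list, 2.58 for the myeloid and erythroid list, 1.29 for the BAF complex and 0.772 for all protein-coding genes. Housekeeping genes had the highest value, 9.40, from 6 flanks at Ywhaz and Actb. Cell adhesion and axon guidance genes, which often border deserts, had 8 of 34 genes next to a site but 0.137 sites per Mb. Developmental homeobox, Sox and Fox factors had 7 of 37 genes and 0.331 sites per Mb.

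**Figure D5:**
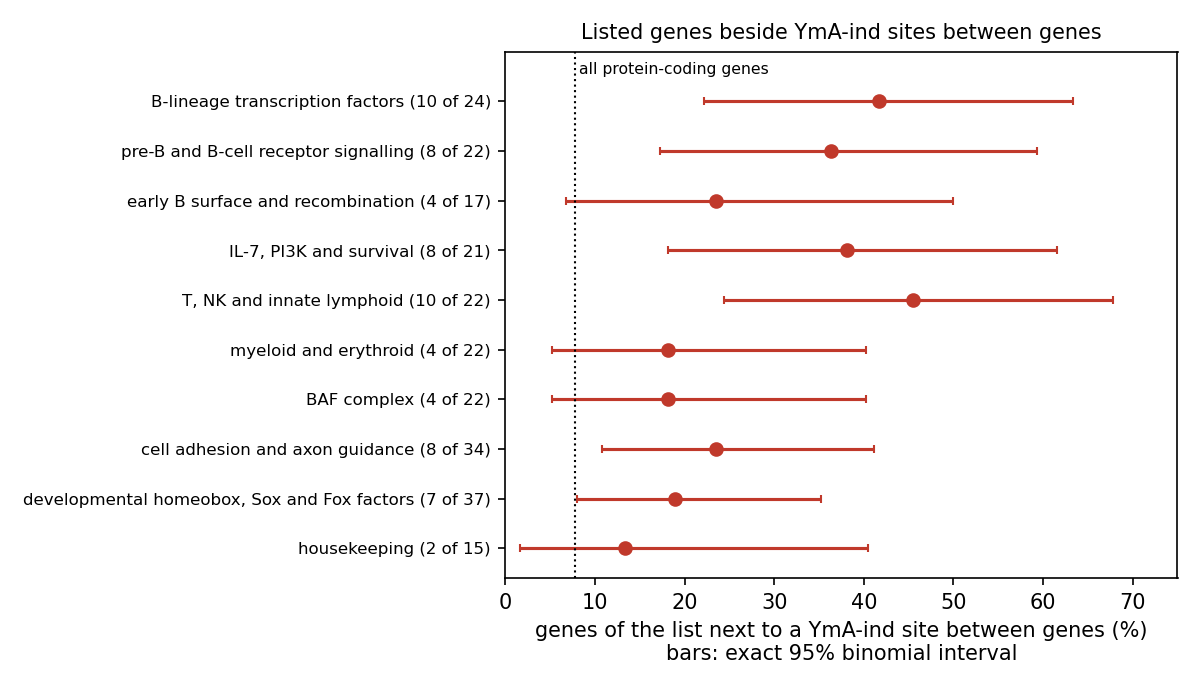
Share of the genes of 10 lists that are next to at least 1 YmA-ind EBF1 site between genes (%), with exact 95% binomial intervals; the dotted line marks the share for all protein-coding genes, 7.76%. The B-lineage transcription factor list stands at 10 of 24 genes and the housekeeping list at 2 of 15; the intervals are wide because the lists are short.

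A site counts for the genes on both sides of its gap, so a listed gene is not always the nearer one. Among the B-lineage factors, Mycn had 7 sites beside it, Foxo1 5, Ebf1 4 and Lef1 3. Lef1 encodes a factor of early lymphocytes, and its sites were all before its start, at 12.3, 52.9 and 90.8 kb. Pax5, which maintains B-cell identity, had a site 31.4 kb before its start (44741905 to 44742204 on chromosome 4) and another 105 kb beyond its far end. Each of these sites lay nearer to another protein-coding gene than to Pax5. Irf8, a factor shared by B and myeloid cells, had 2 sites beyond its far end, at 43.3 and 50.5 kb.

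The 8 receptor signalling genes had their closest site at distances from 1.53 to 103 kb. The 3 sites at Plcg2, the phospholipase of the B-cell receptor, were 3.23, 16.2 and 20.0 kb before its start on chromosome 8. Those at Cd79b, which encodes the receptor chain Ig-beta, were 2.95 and 5.72 kb away on chromosome 11. A site on chromosome 19 (40995605 to 40995904) was 1.53 kb before the start of the adaptor gene Blnk and 33.5 kb before that of Dntt, the terminal transferase of V(D)J recombination. Vpreb2, of the surrogate light chain, had a site at 2.47 kb; it has a near-identical paralog, so the placing of reads there is uncertain. Fyn, a Src-family kinase gene, had its 2 sites at 103 and 154 kb. The single sites of Cd72, Prkcb and Bank1 were 25.3, 31.0 and 54.7 kb away; the last 2 genes are named beyond the rule, to complete the list.

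In the IL-7, PI3K and survival list, Myc had 5 sites, as described. Socs3, which encodes an inhibitor of cytokine signalling, had 3, the closest 4.59 kb before its start. Pim1, a kinase gene induced by cytokines, had 3, of which 2 lay before its start, at 78.8 and 95.2 kb. Both of the latter were nearer to another protein-coding gene than to Pim1. Ccnd2, which encodes cyclin D2, had 3 sites in a run of their own, 213, 221 and 224 kb away (127365162 to 127375944 on chromosome 6). All 3 were nearer to Parp11, at the other end of the gap. Pik3r1, the regulatory subunit of PI3K, had 3 at 199, 477 and 857 kb, the last 2 before its start. Those 2 were nearer to Cd180, at 448 and 68.8 kb.

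In the T, NK and innate lymphoid list no gene had more than 2 sites. Notch1 had 2 before its start, at 10.3 and 26.3 kb, and Runx3 had 2 beyond its far end, at 3.98 and 25.6 kb. The farther site of Runx3 was nearer to another protein-coding gene, at 10.3 kb. Satb1, which encodes a chromatin organiser of T cells, had 2 before its start, at 333 and 615 kb. The farther of these was nearer to Kcnh8, at 154 kb. Lck, a T-cell kinase gene, had 1 at 3.64 kb.

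In the other lists, Cebpb of the myeloid list had 2 sites, at 65.0 and 220 kb. The farther of these lay 20.5 kb from another protein-coding gene. The BAF complex list had 1 site at each of 4 genes, Dpf1 (1.72 kb), Bcl7a (8.02 kb), Actl6a (52.3 kb) and Arid1b (736 kb), and so no gene of that list stood out by its count. The sites of Dpf1 and Arid1b, for example, were nearer to Sipa1l3, at 1.06 kb, and to Nox3, at 562 kb. Cell adhesion and guidance genes had their sites far off, the closest 515 kb away at Pcdh9 and 763 kb at Cdh9, apart from the netrin gene Ntn1, with a site at 6.99 kb. In the developmental list, Cux1 had 3 sites before its start, at 37.7, 58.2 and 112 kb, and Foxp1 had 3, the closest at 44.5 kb.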

How the data were processed

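The data are the site positions and classes that the authors deposited for 1 of the 5 libraries, in bp on mouse GRCm38 (mm10). Per the submitters' processing notes, Bowtie2, SAMtools and deepTools were used. Of the peak caller, its threshold, the step behind the common width and the classing rule, details were not given in the sources used here. Class names are therefore labels only.

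Genes were taken from RefSeq (GRCm38.p6). The 365 genes on scaffolds or of unknown place were left out, as were chromosome Y and mitochondrial genes, which left 49209. Strand came from the RefSeq promoter table, which lacked it for 4247 protein-coding genes. All 236 genes of the 10 lists were matched. A site was reduced to its centre. A distance runs to the end of a gene span, and coordinates are 1-based. Open sequence includes unsequenced stretches. Intervals are Clopper-Pearson for shares, exact Poisson for densities and order-statistic for medians. Python 3.11.15, pandas 2.3.3 and scipy 1.17.1 were used, and the site search was checked on simulated points against a direct search.

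The named genes are those beside the 10 deserts and 10 gaps with the most sites, the 10 genes flanking the most sites, the extremes of distance and up to 6 genes per list. The members, lists and rules were chosen with earlier results of these data known. Planned motif and sequence analysis of the sites and a stricter peak threshold were not run, for want of a genome and a score. Depth per library is unknown. A few of the genes that the rule names are not reported here.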

Additional observations from a re-analysis of the deposited data

How the results depend on the processing

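Of 119 alternative values, 29 of 49 for the main results and 65 of 70 for the gene lists stayed within 1.5 times the count or within the interval of the median; the number of sites between genes, 1187, ranged from 804 to 1616. The median distance to a gene end (8.52 kb) became 21.6 kb with protein-coding genes only, 20.3 kb without predicted and clone-named genes, 14.9 kb with a 5 kb limit and 6.14 kb with no limit. In the same order, the median to a protein-coding gene (19.1 kb) became 21.6, 21.6, 27.1 and 14.5 kb, and the median gap (40.5 kb) 112, 97.8, 53.8 and 35.8 kb. Deserts with 3 or more sites (13) numbered 23 with protein-coding genes only and 21 without predicted genes, and 32 from 250 kb, 4 from 1000 kb and 31 with 2 or more sites. Sites in runs (148) numbered 92 with a 5 kb limit, 71 with gaps under 5 kb and 344 under 25 kb. These shifts follow from the settings, which admit other genes, sites or gaps. Among the lists, receptor signalling went from 8 to 4 genes and IL-7, PI3K and survival from 8 to 5 with a 5 kb limit; with flanks within 100 kb, the latter went to 5, cell adhesion from 8 to 1 and developmental factors from 7 to 3. Counting same-class sites under 1 kb apart once, an alternative chosen after the data were seen, gave 1169 sites and 13 deserts. No site lay in an antigen receptor array, so leaving these out changed nothing. No paired analysis was possible because a single library has a file. Depth is unknown, and a gap with no site says nothing of weaker binding there.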

Other observations

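Chromosomes differed in their YmA-ind sites between genes. The autosomes had 1.02 such sites per Mb of open sequence, from 0.554 on chromosome 3 to 1.69 on chromosome 11. Chromosome X had 0.118 (13 sites, exact interval 0.0628 to 0.202), and 5 of its 13 lay in the single desert between H2al1j and Bcor. It had only 45 YmA-ind sites of any place. The 13 were 28.9% of these, near the 29.3% of YmA-ind sites as a whole. The share of YmA-ind sites that lay between genes was highest on chromosome 18, at 45.0% (50 of 111), and lowest on chromosome 19, at 19.5% (32 of 164). All 43 YmA-ind sites within arrays of immunoglobulin and T-receptor segments lay inside an annotated gene span, so none of them belonged to the set.

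Among the genes of calcium-dependent NFAT factors, Nfatc1 and Nfatc2 each bordered a gap with 4 sites; they were singled out after their values were seen, and the rest of the family was not looked at. These were the gap of 127 kb between Ctdp1 and Nfatc1 and that of 195 kb between Kcng1 and Nfatc2, and neither held a YmA-dep or CTD-ind site between genes. Counting sites inside or near non-coding genes too, the gap beside Nfatc1 held 5 EBF1 sites, all YmA-ind, and that beside Nfatc2 held 8, of which 6 were YmA-ind.

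A microRNA gene was the nearest gene of 5 sites (0.421%, interval 0.137 to 0.980%), while 2.50% of all annotated genes are microRNA genes and 1.28% of CTD-ind sites between genes had one nearest. The share of annotated genes is no baseline here, since a gene inside the span of another cannot be nearest to a site between genes. The closest was Mir203, at 1.56 kb, and Mir1945 was at 9.03 kb. Mir146, known for restraining innate signalling in immune cells, had sites at 28.4 and 11.1 kb on chromosome 11 (43345862 to 43346161 and 43385369 to 43385668). Mir17, of a cluster needed for the survival of early B cells, had a site at 38.5 kb on chromosome 14 (115005034 to 115005333). The 5p mature sequences of Mir146 and Mir17, from RefSeq (GRCm38.p6), are given with the seed, bases 2 to 8, in capitals, since it decides which messages a microRNA pairs with, and the seeds differ.
mmu-miR-146a-5p: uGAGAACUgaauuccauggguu
mmu-miR-17-5p: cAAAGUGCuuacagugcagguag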
